A study of Mus musculus with 13 samples.

Results

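A set of 41 genes of the cell division cycle were followed in mouse hearts after doxorubicin, an anthracycline that damages DNA and harms the heart, and after the same drug preceded by sAcvR2B-Fc, a soluble activin receptor that binds activins, myostatin and related ligands. The 41 genes are a list of named cell cycle and proliferation genes, matched to array probes by their symbols and older aliases. The annotation named a probe for 39 of them, and 29 had a probe with a detection p under 0.05 on at least 3 arrays and were tested, among 10410 tested genes in all. RNA came from whole hearts of 13 male C57BL/6 mice aged 8 to 10 weeks, hybridised to Illumina BeadChips. Control mice (n = 5) were injected with PBS, the second group (n = 5) with doxorubicin alone, and the third (n = 3) with sAcvR2B-Fc 48 hours before doxorubicin, all intraperitoneally. The hearts were removed 20 hours after the last injection, and no group given sAcvR2B-Fc without doxorubicin was analysed here. Here 1 array stands for 1 mouse, and the labels name no batches.

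A dividing cell passes from G1, where D-type cyclins with Cdk4 or Cdk6 phosphorylate the retinoblastoma protein and release E2F factors, into S phase, where the MCM helicase opens the DNA and PCNA clamps the polymerases to it. Cyclin A and B with Cdk1 then drive mitosis, in which Aurora and Polo-like kinases, checkpoint proteins and motor proteins part the chromosomes. Cyclin-dependent kinase inhibitors hold this sequence back, and DNA damage stops it through p53 and its target Cdkn1a (p21). Most cardiomyocytes of the adult mouse have left the cycle, so in whole heart these transcripts can also come from the endothelial, stromal and blood cells in the tissue.

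For 8 of the 13 samples the non-normalized table and the series matrix point to different arrays, and in 6 cases the array changes group. Names from the non-normalized table were used, and values under the series matrix names stand beside each comparison. Median raw signals lay between 101.5 and 136.3, and 15989 to 17939 probes were detected per array. Of 10 cardiomyocyte markers, 9 were detected on all 13 arrays, and Tnnt2 had no named probe. One array, doxorubicin replicate 2, stood apart in its cell cycle genes, and the counts for doxorubicin against PBS are given with and without it.

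The promoters of 3 replication genes are shown first, because the S phase genes with the smallest p below are Mcm6 and Mcm7, whose differences had opposite signs, and Pcna. RefSeq promoters (GRCm38.p6, 250 bases before to 50 after the start) were held for 34 of the 41 genes, 38 promoters in all. The letters TTTCGCGC, TTTGGCGC, TTTCCCGC and TTTGCCGC, forms of the E2F site, were searched on both strands, as were CCAAT and TTTGAA, the core of the cell cycle homology element. Capitals mark these matches, which may overlap one another. The sequences are printed 5′ to 3′ on the gene's strand, which is the minus strand in each.
Mcm6, chr1:128359656-128359955: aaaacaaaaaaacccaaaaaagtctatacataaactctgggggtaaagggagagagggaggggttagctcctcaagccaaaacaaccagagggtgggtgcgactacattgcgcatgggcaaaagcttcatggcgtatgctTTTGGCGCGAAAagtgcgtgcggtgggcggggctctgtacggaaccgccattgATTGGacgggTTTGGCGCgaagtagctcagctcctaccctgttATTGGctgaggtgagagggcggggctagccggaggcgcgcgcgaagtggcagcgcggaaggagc
Mcm7, upstream start, chr5:138171834-138172133: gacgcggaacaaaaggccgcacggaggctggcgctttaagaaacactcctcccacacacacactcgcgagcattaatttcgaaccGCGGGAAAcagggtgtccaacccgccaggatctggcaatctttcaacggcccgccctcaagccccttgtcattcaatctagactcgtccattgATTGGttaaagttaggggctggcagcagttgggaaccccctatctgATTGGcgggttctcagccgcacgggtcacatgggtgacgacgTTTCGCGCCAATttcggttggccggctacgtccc
Mcm7, downstream start, chr5:138171217-138171516: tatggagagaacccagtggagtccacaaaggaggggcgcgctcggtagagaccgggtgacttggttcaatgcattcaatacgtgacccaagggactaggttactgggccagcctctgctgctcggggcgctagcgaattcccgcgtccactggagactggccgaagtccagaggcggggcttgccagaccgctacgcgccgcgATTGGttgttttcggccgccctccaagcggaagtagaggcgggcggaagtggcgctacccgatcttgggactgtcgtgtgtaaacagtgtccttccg
Pcna, chr2:132253131-132253430: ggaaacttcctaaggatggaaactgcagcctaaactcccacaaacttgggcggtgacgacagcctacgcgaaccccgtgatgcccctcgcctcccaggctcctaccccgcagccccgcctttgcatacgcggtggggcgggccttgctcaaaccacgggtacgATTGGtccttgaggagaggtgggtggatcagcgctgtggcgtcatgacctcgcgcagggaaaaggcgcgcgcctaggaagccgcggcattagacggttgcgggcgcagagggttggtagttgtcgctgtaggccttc
The Mcm6 window held 3 E2F matches and that of the upstream Mcm7 start held 2, while the windows of Pcna and of the downstream Mcm7 start held none of these letters. An E2F match occurred in 6 of the 38 promoters (15.8%), those of Cdk1, Cdk2, Mcm3, Mcm5, Mcm6 and Mcm7, against 2.26% of the 32851 promoters in the RefSeq table. CCAAT occurred in 73.7% of the promoters of these genes and in 37.4% of all promoters, and TTTGAA in 36.8% and 17.9%. A match describes the letters in the window only.

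Of the 39 genes with a named probe 74.4% passed the detection filter, where 54.6% of all 19057 named genes did. Of the 18 mitotic genes 16 had a named probe and 8 (50%) could be tested (Birc5, Aurka, Bub1b, Plk1, Cdc20, Nusap1, Prc1 and Cdca8), while 10 of 11 replication genes, 6 of 7 G1 cyclins and kinases and all 5 inhibitors, pocket protein and E2F genes passed. No array detected Ccnb2 and Ccna2, the mitotic and S phase cyclins, Aurkb and Bub1, a kinase of chromosome alignment and one of the spindle checkpoint, Ube2c, which tags cyclin B for destruction, Kif11, a spindle motor, or Cdk6, a G1 kinase. Top2a, the topoisomerase that untangles chromosomes and a target of doxorubicin, and Cdk1, the mitotic kinase, were each detected on 1 array, doxorubicin replicate 2. Rrm2, the small subunit of the enzyme that makes deoxynucleotides, was detected on 3 arrays, but by different probes, and did not pass. Mki67 and Ccnb1 had no named probe and were not analysed here. A gene that was not detected has no measured level on that array, which does not say that it was silent.

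**Figure D1:**
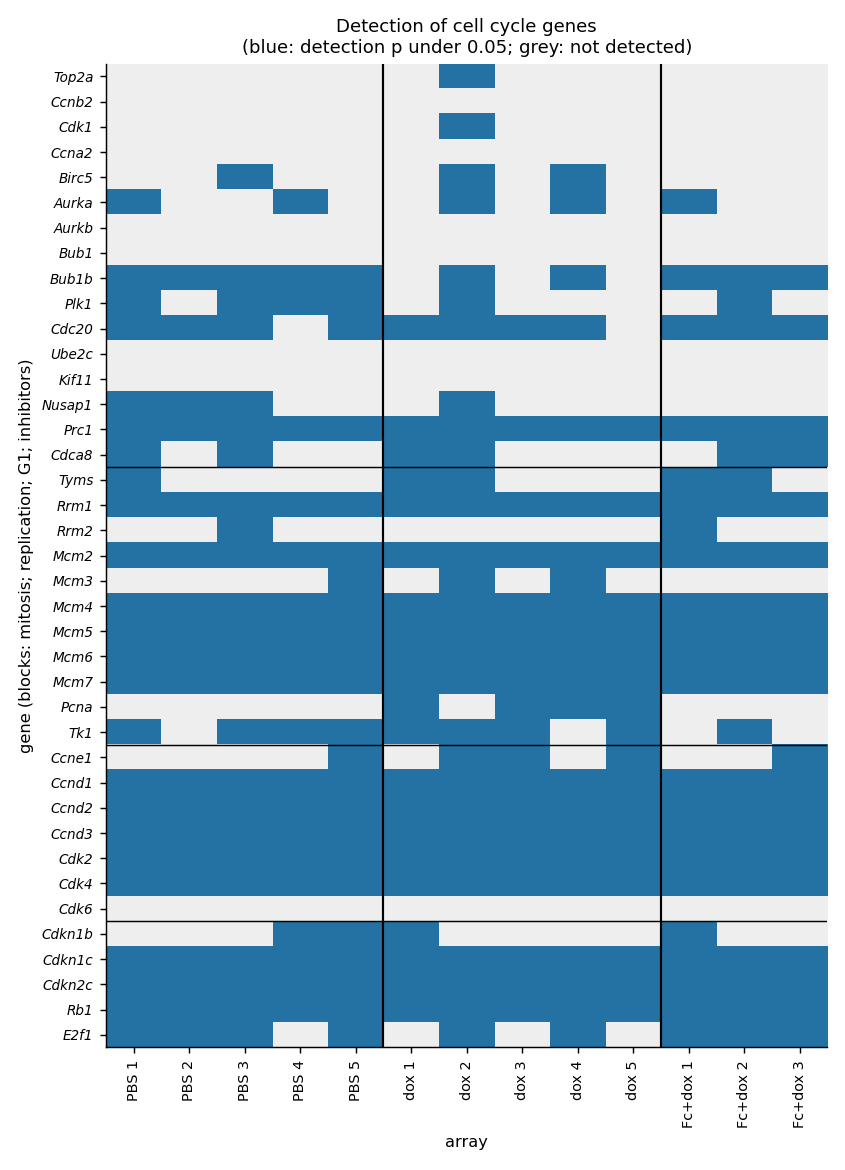
Detection of the 39 genes with a named probe (rows) on the 13 arrays (columns; dox, doxorubicin; Fc+dox, sAcvR2B-Fc before doxorubicin), with blue where the detection p was under 0.05 for the probe that represents the gene. The mitotic block at the top is mostly grey, the 4 genes Mcm4, Mcm5, Mcm6 and Mcm7 are blue on all 13 arrays, and Pcna is blue on 4 doxorubicin arrays only.

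The genes detected on all 13 arrays were Prc1, a microtubule bundler of the dividing spindle, Rrm1, Mcm2, Mcm4, Mcm5, Mcm6, Mcm7, Ccnd1, Ccnd2, Ccnd3, Cdk2, Cdk4, Cdkn1c, Cdkn2c and Rb1. PBS arrays detected 19 to 24 of the 39 genes and sAcvR2B-Fc arrays 20 to 23. Doxorubicin arrays detected 19 to 30, where replicate 2 had 30 and the other 4 had 19 to 22. That array also detected 10 mitotic genes, against 2 to 5 on the other doxorubicin arrays.

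The first comparison asked what doxorubicin alone did to these genes. None of the 29 genes was called after doxorubicin at an adjusted p under 0.05 (limma, Benjamini-Hochberg over all 10410 genes), where 0.24% of all tested genes were called. At an unadjusted p under 0.05 there were 4, Mcm7 and Pcna higher and Mcm6 and Cdkn1c lower, against 12.2% of all genes. Of the 29, 20 had a negative and 9 a positive difference, with a median of -0.087 on the log2 scale, and the median over all tested genes was -0.004. With median scaling in place of quantile normalization, the median over all genes shifted to 0.126 and that of the 29 to 0.049, with 11 negative and 18 positive, so the sign of the median depended on the scaling, while it lay below that of all genes in both. For 28 of the 29, all but Prc1, the 95% interval lay within a 2-fold change either way, as it did for 95.9% of all genes. In bulk heart RNA, fewer cells of a type and less RNA per cell cannot be told apart.

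Among the replication genes, Mcm7 and Mcm6, subunits of the same helicase ring, differed in opposite directions. The normalized log2 intensities of Mcm7 were 6.35, 5.99, 6.44, 5.73 and 5.80 on the PBS arrays, 6.66, 6.20, 6.87, 6.67 and 6.51 on the doxorubicin arrays, and 6.61, 6.31 and 6.45 after sAcvR2B-Fc and doxorubicin. Of the doxorubicin arrays only replicate 2 lay within the PBS range, as did sAcvR2B-Fc replicate 2, and the difference of 0.52 ± 0.16 (SE) had an adjusted p of 0.189. Without doxorubicin replicate 2, the lowest array of its group for Mcm7, the difference was 0.62 ± 0.15 with an adjusted p of 0.0486, and Mcm7 was the 1 gene of the 29 that was called.

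For Mcm6 the PBS arrays gave 6.99, 6.69, 6.77, 6.66 and 7.05, the doxorubicin arrays 6.42, 6.91, 6.03, 6.58 and 6.32, and the sAcvR2B-Fc arrays 6.22, 6.07 and 6.47. The doxorubicin arrays other than replicate 2 lay below the lowest PBS array. The difference was -0.38 ± 0.15 with an adjusted p of 0.306, and -0.50 ± 0.13 with an adjusted p of 0.0641 without replicate 2. The other 2 passing Mcm6 probes gave differences of -0.26 and -0.23. Mcm5, another ring subunit, differed by -0.36 ± 0.19, and Mcm2, Mcm3 and Mcm4 by -0.11 ± 0.19, 0.086 ± 0.15 and 0.11 ± 0.12. The signs of the subunits differed, but the intervals of Mcm2, Mcm3, Mcm4 and Mcm5 include 0 and no subunit was called with all arrays. The second Mcm7 probe, detected on 1 array, did not pass.

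Pcna, the sliding clamp of DNA polymerase and a known p53 target, was detected on no PBS array and on 4 of 5 doxorubicin arrays. Its values were 5.04, 5.04, 5.06, 5.19 and 5.07 in PBS, 5.29, 5.06, 5.30, 5.28 and 5.36 after doxorubicin, and 4.83, 4.90 and 4.87 in the sAcvR2B-Fc group. Because the gene entered the test through the doxorubicin arrays alone, it had to be higher there. The doxorubicin mean of 5.26 ± 0.12 (SD) was at least 1.05-fold higher than the PBS group, whose measured mean was 5.08 ± 0.063, and the adjusted p was 0.38. Of the enzymes of nucleotide supply, Tyms, thymidylate synthase, differed by 0.044 ± 0.18, Rrm1, the large subunit of ribonucleotide reductase, by -0.053 ± 0.11, and Tk1, thymidine kinase, by -0.037 ± 0.14. Second probes of Rrm1 and Tk1 gave 0.096 and 0.065, opposite in sign.

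**Figure D2:**
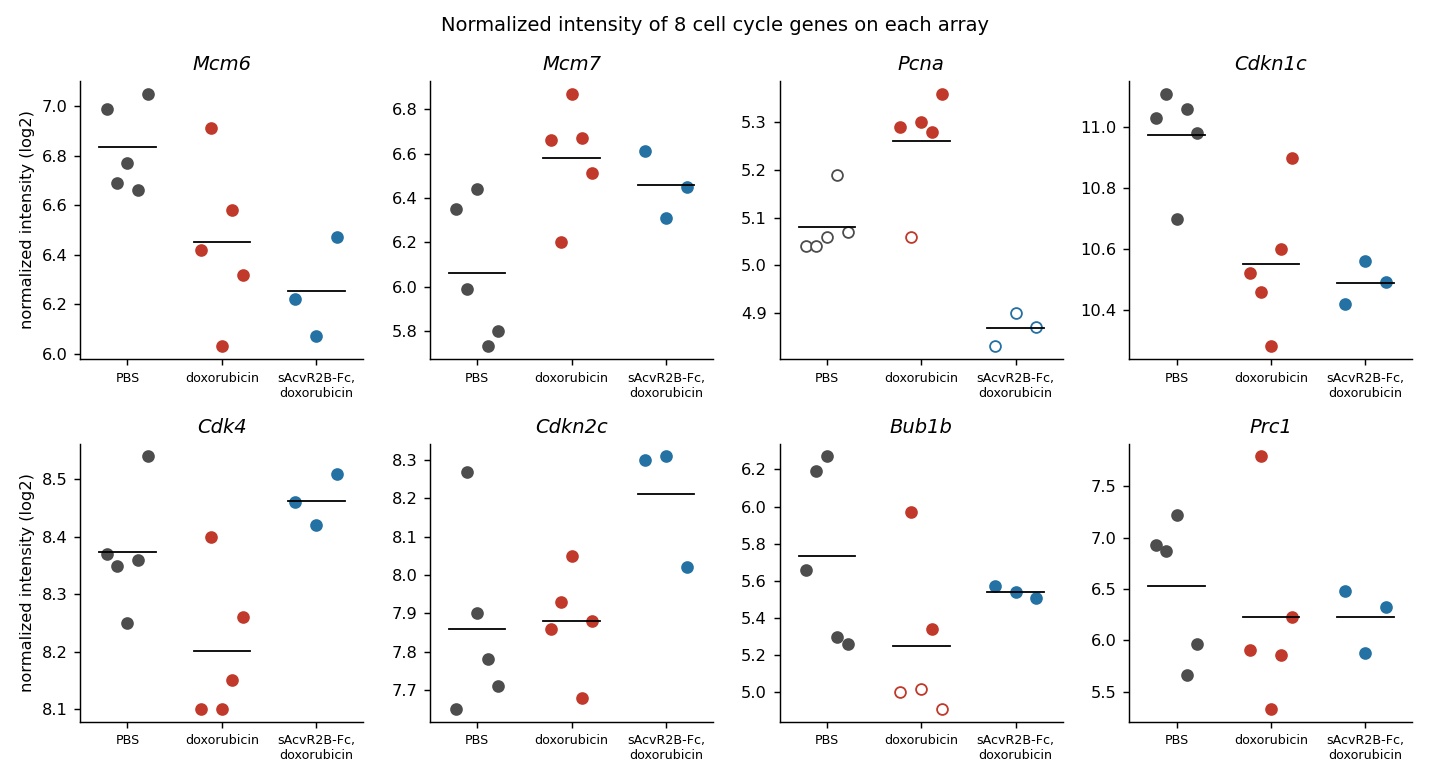
Normalized log2 intensity (vertical axis, scaled for each gene and not starting at 0) of 8 genes on each array in the 3 groups; filled points are detected, open points are not, and lines are group means. Mcm6 was lower and Mcm7 higher on the doxorubicin arrays other than replicate 2, and Pcna was detected in the doxorubicin group only.

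The inhibitors and G1 genes included the gene with the smallest p of this comparison, Cdkn1c (p57), an inhibitor of cyclin-dependent kinases. Its PBS values were 11.03, 11.11, 10.70, 11.06 and 10.98, the doxorubicin values 10.52, 10.46, 10.28, 10.60 and 10.90, and the sAcvR2B-Fc values 10.42, 10.56 and 10.49. Of the doxorubicin arrays 4 lay below all PBS arrays, and replicate 5 lay within the PBS range. The difference was -0.42 ± 0.12, with an adjusted p of 0.153. Cdkn1b (p27), detected on 4 arrays in all, differed by -0.21 ± 0.20, and Cdkn2c (p18), an inhibitor of Cdk4 and Cdk6, by 0.020 ± 0.12. A second Cdkn2c probe, detected on 7 arrays, gave 0.32 ± 0.16.

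Rb1, the retinoblastoma pocket protein, measured 9.46, 9.86, 9.78, 9.22 and 9.18 in PBS, 9.87, 9.78, 9.98, 9.94 and 9.22 after doxorubicin, and 9.85, 9.29 and 9.09 after sAcvR2B-Fc and doxorubicin. The groups overlapped, with differences of 0.26 ± 0.19 after doxorubicin and, by a second probe, 0.028 ± 0.13. E2f1, a factor that Rb1 holds in check, differed by -0.087 ± 0.21.

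The D-type cyclins, which carry cells through G1, overlapped between doxorubicin and PBS hearts. Ccnd1 read 11.16, 10.98, 11.03, 10.40 and 10.60 in PBS, 10.36, 11.01, 10.28, 10.67 and 10.63 after doxorubicin, and 10.63, 10.79 and 10.66 in the sAcvR2B-Fc group, for a difference after doxorubicin of -0.24 ± 0.16. Ccnd2 read 10.20, 10.60, 10.02, 10.08 and 10.54, then 9.64, 10.60, 10.30, 9.96 and 10.50, then 10.07, 10.16 and 10.16, for -0.088 ± 0.18. Ccnd3 read 9.62, 9.68, 9.49, 9.59 and 9.90, then 9.47, 9.97, 9.28, 9.49 and 9.56, then 9.74, 9.81 and 9.96, for -0.10 ± 0.12. All 3 intervals include 0. Their kinase Cdk4 differed by -0.17 ± 0.086 (adjusted p 0.439), and a second Cdk4 probe by 0.001 ± 0.14. Another Ccnd2 probe gave 0.18, opposite in sign. Cdk2, the kinase of the G1 to S step, differed by -0.023 ± 0.13, against 0.040 to 0.19 by its 3 other probes, and Ccne1, its cyclin, detected on 5 arrays, by 0.25 ± 0.22.

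The 8 mitotic genes had a median difference of -0.20, and 7 of them were negative (5 with median scaling, median -0.074). None reached an unadjusted p under 0.05, and without background correction the median was -0.067. Plk1 was detected on 4 PBS arrays and 1 doxorubicin array, and Nusap1 on 3 and 1. Both passed the filter only with the PBS arrays, which favoured lower values after doxorubicin. Bub1b, a kinase of the spindle checkpoint, read 5.66, 6.19, 6.27, 5.30 and 5.26 in PBS, 5.00, 5.97, 5.02, 5.34 and 4.91 after doxorubicin, and 5.57, 5.54 and 5.51 after sAcvR2B-Fc and doxorubicin. It was detected on all 5 PBS arrays and on 2 doxorubicin arrays, and the difference was -0.49 ± 0.23 with an adjusted p of 0.413, while a second probe, detected on 4 arrays, gave -0.14 ± 0.17. Nusap1, which binds spindle microtubules, differed by -0.35 ± 0.23, Plk1, the Polo-like kinase, by -0.31 ± 0.18, and Prc1 by -0.30 ± 0.40. Cdca8 and Birc5, subunits of the complex that corrects chromosome attachment, differed by -0.095 and -0.032, Cdc20, which activates the ligase that ends mitosis, by -0.061, and Aurka, the centrosome kinase, by 0.005. Of the other Cdc20 probes, 1 gave 0.145, opposite in sign.

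**Figure D3:**
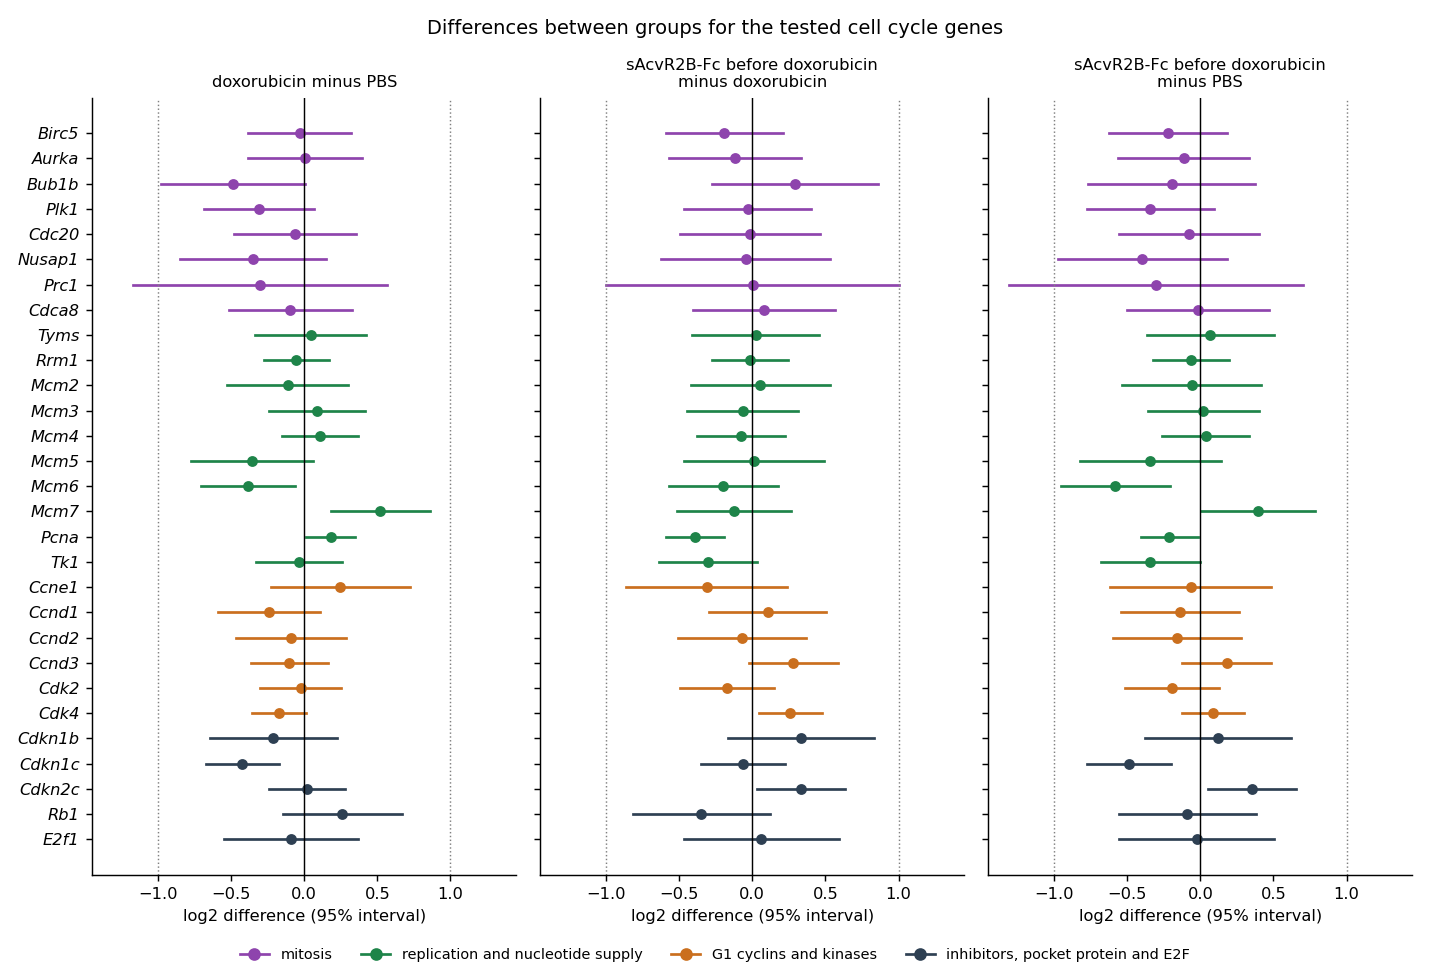
Log2 differences with 95% intervals of the 29 tested genes in the 3 comparisons, coloured by role; dotted lines mark a 2-fold change either way. Prc1 had the widest intervals, and the other 28 intervals stay between the dotted lines in each comparison. Differences of genes not detected in a group, such as Pcna, rest on signals near background.

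Doxorubicin replicate 2 was the highest doxorubicin array for all 8 mitotic genes, and for 62.1% of the 29 genes against 24.5% of all tested genes. It gave 7.79 for Prc1, where the other 4 arrays of its group gave 5.33 to 6.23, and 5.82 for Nusap1. Its median deviation from the gene means was 0.53 over the mitotic genes, while the other doxorubicin arrays lay between -0.45 and -0.20. PBS replicate 3 reached 0.58, and PBS replicates 4 and 5 lay at -0.16 and -0.17, so the PBS arrays also differed among themselves. Both deposited tables place doxorubicin replicate 2 in the doxorubicin group.

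That array was singled out after its values were seen, and leaving out the highest array of a group lowers the group's mean, or raises it where the array was the lowest, as for Mcm7 and Pcna, so the counts without it are a description and support nothing about doxorubicin. Without it, 22 of the 29 differences were negative, with a median of -0.17, and the median of the 8 mitotic genes was -0.36. At an unadjusted p under 0.05 there were 11 genes, 9 lower and 2 higher, against 16.6% of all genes, and the 1 called gene, Mcm7, stood against 3.19%. With all arrays, no gene of the 29 had doxorubicin and PBS values that did not overlap, where 2.85% of all genes did.

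**Figure D4:**
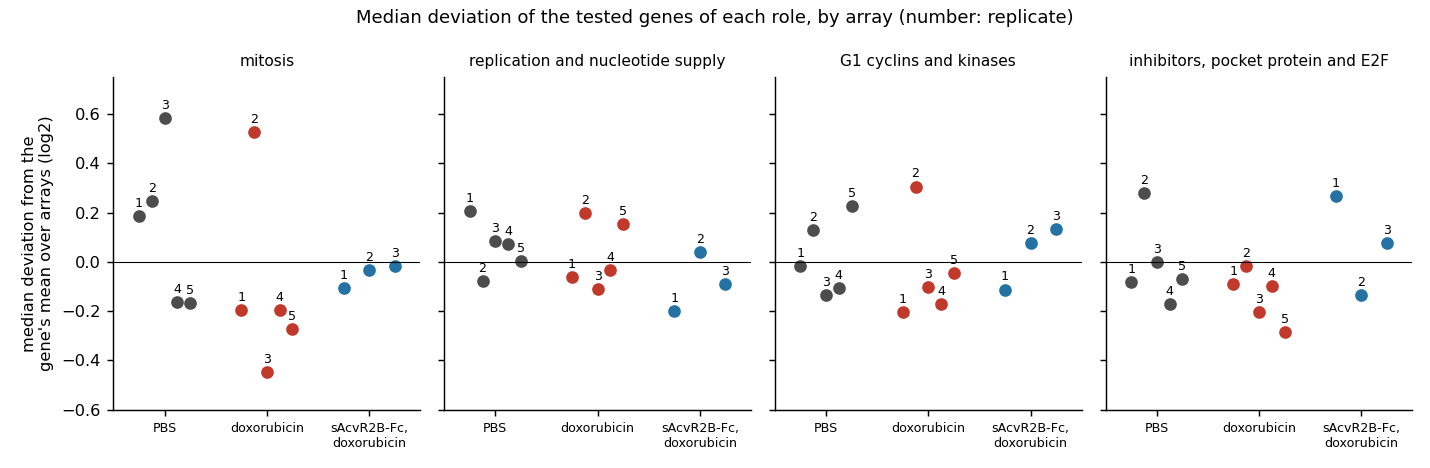
Median deviation (log2) of the tested genes of each role from their means over the 13 arrays, one point per array with its replicate number. In the mitosis panel doxorubicin replicate 2 (0.53) lies apart from the other doxorubicin arrays (-0.45 to -0.20), and PBS replicate 3 (0.58) is the highest PBS array.

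Markers of other cell types were followed beside these genes. Only S100a8 and S100a9 among them were called, and none under the series matrix names. Of 9 neutrophil markers 4 were tested, and their summed level was 106 to 178 on the PBS arrays, 335 to 842 after doxorubicin and 424 to 458 after sAcvR2B-Fc and doxorubicin. S100a8 and S100a9 were higher in both treated groups than in PBS (adjusted p at most 0.00312). However, they were detected on 1 PBS array each, and Retnlg, another of the summed genes, on none. These genes passed the filter only with the treated arrays, so the filter itself favoured a higher level and sum there. Ngp was undetected, and Camp, Mpo and Elane were each detected on 1 array. Of 10 erythroid markers 5 were tested and none was called. All 5 were lower than PBS after doxorubicin and in the sAcvR2B-Fc group, with medians of -0.54 and -0.86, and so were all 5 with median scaling. Slc4a1, 1 of them, passed the filter only with the PBS arrays. The sum of the 5 was 30308 to 40838 in PBS, 15582 to 39766 after doxorubicin and 14211 to 24305 in the sAcvR2B-Fc group. Doxorubicin replicate 2 had the highest erythroid (39766), smooth muscle and pericyte (15721), endothelial (13265) and macrophage (4247) sums of its group and the lowest neutrophil (335) and cardiomyocyte (125447) sums. Summed levels of 7 of 9 endothelial markers overlapped between the groups (11137 to 12838, 11060 to 13265 and 11321 to 11579), as did those of 8 of 9 macrophage markers (2594 to 4307, 3344 to 4247 and 3314 to 6000). With sAcvR2B-Fc against PBS, 6 macrophage markers were higher and 2 lower, with a median of 0.35 and none called. Endothelial markers had 3 higher and 4 lower. C1qa (0.58, adjusted p 0.101), C1qb (0.80, adjusted p 0.0553) and the endothelial Tek (-0.39, adjusted p 0.109) did not overlap there. Nor did the erythroid Hba-a1, Hbb-bt, Alas2 and Tfrc, the fibroblast Lum, Pdgfra and Dpt, and the pericyte Kcnj8, all lower than PBS. Cd8b1 and the 4 tested neutrophil markers were higher than PBS without overlap. Of all genes, 13.9% did not overlap. All 7 tested smooth muscle and pericyte markers (of 8) were lower after doxorubicin and in the sAcvR2B-Fc group than in PBS, with medians of -0.22 and -0.20 and none called, but 6 and 4 of them were with median scaling. Of 8 fibroblast markers 7 were tested and 6 were lower than PBS in each treated group, with medians of -0.16 and -0.38 and none called, but 4 and 5 were with median scaling. The T cell markers Cd3e, Cd3d, Cd3g, Cd4, Cd8a and Dntt were not detected on any array, Rag1 and Ptcra on 3 and 7, and Cd8b1 on all 13. The sum of these last 3 was 1083 to 1686 in PBS, 1438 to 1822 after doxorubicin and 1726 to 2200 with sAcvR2B-Fc. Cd8b1 made up most of this sum. With sAcvR2B-Fc it was higher than in PBS by 0.51 (adjusted p 0.104), while Ptcra and Rag1 differed by -0.22 and -0.007. The part of these cells in the differences of the cell cycle genes was not tested.

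Under the series matrix names, 0 of the 29 genes (and 0% of all genes) were called in this comparison, and 0, against 1.58% of all genes, reached an unadjusted p under 0.05. Of the 29 differences, 22 kept their sign. Mcm7 was then 0.16, Mcm6 -0.18, Cdkn1c -0.29, Pcna 0.077 and Bub1b -0.23.

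The second comparison asked what sAcvR2B-Fc, given before doxorubicin, changed against doxorubicin alone. Again 0 of the 29 genes were called, where 0.0865% of all genes were. At an unadjusted p under 0.05 there were 3, Pcna lower and Cdk4 and Cdkn2c higher, against 11.3% of all genes. Pcna and Cdk4 were also the 2 genes whose groups did not overlap, a pattern that 6.98% of all genes showed. Because Pcna passed the filter through the doxorubicin arrays alone, it had to be lower with sAcvR2B-Fc. The median difference was -0.032, against 0.018 over all genes, with 17 genes negative and 12 positive (20 and 9 with median scaling), and 0.029 under the series matrix names. The interval lay within 2-fold for 28 genes, Prc1 again excepted, and for 93.4% of all genes.

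Pcna was detected on none of the 3 sAcvR2B-Fc arrays, and its 4.83, 4.90 and 4.87 lay below all doxorubicin values, which ran from 5.06 to 5.36. Doxorubicin hearts were at least 1.11-fold higher, with measured means of 5.26 ± 0.12 and 4.87 ± 0.035 (SD, n = 5 and 3), and the adjusted p was 0.208. Cdk4, the D cyclin kinase, read 8.37, 8.35, 8.25, 8.36 and 8.54 in PBS, 8.10, 8.40, 8.10, 8.15 and 8.26 after doxorubicin, and 8.46, 8.42 and 8.51 with sAcvR2B-Fc. The 3 sAcvR2B-Fc arrays lay just above the highest doxorubicin array, and the group means differed by 0.26 ± 0.099 (adjusted p 0.387). The second Cdk4 probe gave 0.15 ± 0.17.

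Cdkn2c read 7.65, 8.27, 7.90, 7.78 and 7.71 in PBS, 7.86, 7.93, 8.05, 7.68 and 7.88 after doxorubicin, and 8.30, 8.31 and 8.02 with sAcvR2B-Fc. Of the sAcvR2B-Fc arrays, 2 lay above both other groups, and the difference from doxorubicin was 0.33 ± 0.14 with an adjusted p of 0.416, but -0.10 ± 0.19 by the second probe. Tk1 read 5.68, 5.23, 5.41, 5.40 and 5.39 in PBS, 5.16, 5.68, 5.55, 5.00 and 5.53 after doxorubicin, and 4.90, 5.24 and 5.11 with sAcvR2B-Fc. Its groups overlapped, with a difference of -0.30 ± 0.16, and a second Tk1 probe gave -0.12. Ccnd3 was higher by 0.28 ± 0.14 (adjusted p 0.477), with overlapping groups.

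The remaining inhibitors gave -0.062 ± 0.13 for Cdkn1c, 0.33 ± 0.23 for Cdkn1b and -0.35 ± 0.22 for Rb1, whose second probe gave 0.16. Cdkn1b, with its 4 detected arrays, read 4.89, 4.74, 4.58, 5.32 and 5.60 in PBS, 5.38, 4.57, 4.77, 4.85 and 4.51 after doxorubicin, and 5.32, 5.00 and 5.12 with sAcvR2B-Fc, so its groups overlapped. E2f1 differed by 0.061, Ccnd1 by 0.10, Ccnd2 by -0.070, Cdk2 by -0.17 and Ccne1 by -0.31 ± 0.26. The 3 further Cdk2 probes gave 0.003 to 0.19, opposite in sign to the first.

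The mitotic genes had a median of -0.024. Other Cdc20 probes gave 0.25 and 0.065, opposite in sign to the first. Bub1b differed by 0.29 ± 0.27 and Prc1 by 0.002 ± 0.47, and the others, Aurka, Plk1, Cdc20 and Cdca8 by -0.12, -0.032, -0.015 and 0.080. Birc5, Nusap1 and Mcm3 were not detected in the sAcvR2B-Fc group, and their bounds allow no fold. Of the helicase, Mcm7 differed by -0.13 ± 0.18, Mcm6 by -0.20 ± 0.17, and Mcm2, Mcm4 and Mcm5 by 0.054, -0.075 and 0.013. Rrm1 and Tyms differed by -0.013 and 0.023.

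Under the series matrix names 0 genes were called in this comparison, 1 of the 29 (Cdk2, -0.33) reached an unadjusted p under 0.05, against 3.11% of all genes, and 15 of 29 differences kept their sign. Pcna was then -0.057 and Cdk4 0.029.

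The third comparison set both agents against PBS. It shares the PBS arrays with the first and the sAcvR2B-Fc arrays with the second, so the 3 are not independent. None of the 29 genes was called, where 1.23% of all genes were. At an unadjusted p under 0.05 there were 6, Mcm7 and Cdkn2c higher and Mcm6, Cdkn1c, Pcna and Tk1 lower, against 18.3% of all genes. Mcm6, Cdkn1c and Pcna were the 3 whose groups did not overlap, and 13.9% of all genes had this. Pcna was detected on no array of either group, so its difference lies within background signal. The median difference was -0.088 (21 negative, 8 positive), and 0.001 over all genes. With median scaling 15 were negative and 14 positive, with a median of 0 where that of all genes was 0.132. The interval lay within 2-fold for 28 of the 29 and for 91.8% of all genes.

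Cdkn1c was lower by -0.49 ± 0.13 with an adjusted p of 0.0851, the smallest of the list in this comparison, and all 3 sAcvR2B-Fc arrays (10.42, 10.56 and 10.49) lay below the lowest PBS array (10.70). Against PBS the doxorubicin group had differed by -0.42, and the sAcvR2B-Fc group differed from doxorubicin by -0.062. Mcm6 was lower by -0.58 ± 0.17 (adjusted p 0.104), and its other probes gave -0.28 and -0.83. Mcm7 was higher by 0.39 ± 0.18 (adjusted p 0.269), with overlapping groups, and Tk1 lower by -0.34 ± 0.16, where the second probe gave -0.052. Cdkn2c was higher by 0.35 ± 0.14 (adjusted p 0.202), and by 0.22 ± 0.19 with the second probe. Pcna was detected in neither group, and Birc5 and Mcm3 were detected on 1 PBS array each and no sAcvR2B-Fc array, so no fold is given for these 3.

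All 8 mitotic genes were negative against PBS (6 with median scaling), with a median of -0.21 and none at an unadjusted p under 0.05. Without background correction the median was -0.077. Plk1, detected on 4 PBS arrays and on 1 array of each treated group, passed the filter only with the PBS arrays. Nusap1, detected on 3 PBS arrays, 1 doxorubicin array and no sAcvR2B-Fc array, also passed only with the PBS arrays, which favoured a higher level there. Its bound was at least 1.11-fold higher in PBS, with measured means of 5.25 ± 0.39 and 4.86 ± 0.15 and an adjusted p of 0.458. Plk1 differed by -0.34 ± 0.20, Prc1 by -0.30 ± 0.47, Bub1b by -0.20 ± 0.27, Aurka by -0.11, Cdc20 by -0.076 and Cdca8 by -0.015. Of the replication genes, Mcm5 differed by -0.34 ± 0.22, and Mcm2, Mcm4, Rrm1 and Tyms by -0.060, 0.036, -0.066 and 0.067. In G1, Ccnd1 differed by -0.14, Ccnd2 by -0.16, Ccnd3 by 0.18, Cdk4 by 0.088, Cdk2 by -0.19 and Ccne1 by -0.064. Rb1, E2f1 and Cdkn1b differed by -0.088, -0.026 and 0.12. Other probes were opposite in sign for Cdk2 (0.044, 0.262 and 0.235), Cdc20 (0.11 and 0.21), Ccnd2 (0.051) and Rb1 (0.19).

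Under the series matrix names, 0 of the 29 were called against PBS, 0 reached an unadjusted p under 0.05, against 3.44% of all genes, and 14 of 29 kept their sign. Mcm6 was then -0.24, Cdkn1c -0.19 and Mcm7 0.30.

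**Figure D5:**
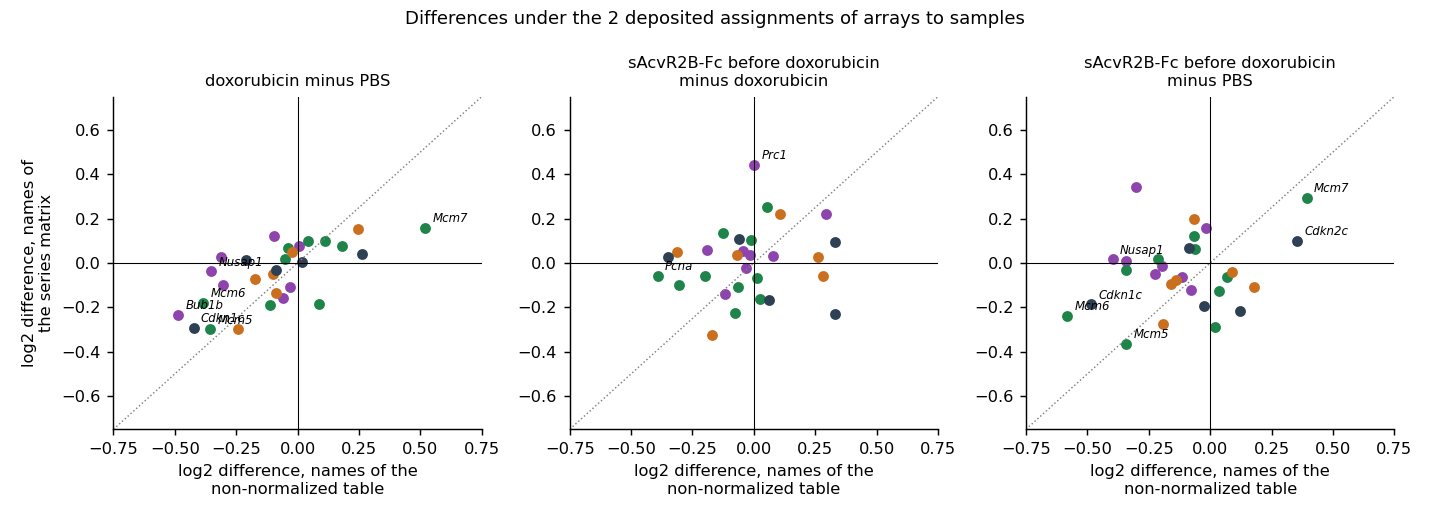
Log2 differences of the 29 tested genes under names from the non-normalized table (horizontal) and of the series matrix (vertical), in the 3 comparisons; colours give the role as in the plot of intervals, and the dotted line marks equality. Mcm7 is at 0.52 and 0.16 and Bub1b at -0.49 and -0.23 in doxorubicin against PBS, and 22, 15 and 14 of 29 genes keep their sign in the 3 comparisons.

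Wider lists of the same pathway, 125 genes that are not among the 41, gave 73 tested genes, of which 1 was called. It was Cdkn1a, the inhibitor that p53 induces, at 8.59, 7.53, 8.28, 8.28 and 7.16 in PBS, 10.88, 9.66, 10.89, 10.54 and 10.34 after doxorubicin, and 10.97, 11.13 and 9.92 with sAcvR2B-Fc. It rose by 2.496 ± 0.32 after doxorubicin (adjusted p 0.00606), whereas under the series matrix names it gave 0.94 with an adjusted p of 1.

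Of 23 further mitotic genes tested, 0 were called in any comparison. After doxorubicin 7 were higher and 16 lower, with a median of -0.094 (11 and 12 with median scaling). Cenpa, the histone of the centromere, was lower by -0.47 ± 0.13 with no overlap (adjusted p 0.158), and Cenpf, a kinetochore protein, by -0.47 ± 0.15 (0.202). Cenpf was detected on 4 PBS arrays and 1 doxorubicin array. It passed the filter only with the PBS arrays, which favoured a lower value after doxorubicin. Spc25, another kinetochore protein, was detected on no PBS array and passed the filter through the treated groups alone, so it had to be higher there; doxorubicin was at least 1.13-fold above PBS (adjusted p 0.175). Incenp, the scaffold of Aurora B, was higher with sAcvR2B-Fc than with doxorubicin alone by 0.53 ± 0.20 (0.39).

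Of 28 further replication genes 0 were called. After doxorubicin 9 were higher and 19 lower (19 and 9 with median scaling), and against doxorubicin alone the sAcvR2B-Fc group had 14 higher and 14 lower (13 and 15). Rfc4, which loads Pcna, differed by -0.72 ± 0.23 between those groups (adjusted p 0.339), and Timeless, which guards replication forks, by -0.50 ± 0.16 (0.347). Timeless had differed by 0.35 ± 0.14 after doxorubicin. Pole, the leading strand polymerase, was not detected with sAcvR2B-Fc, and its bound allows no fold. Of the 22 other G1 control genes, 15 were higher after doxorubicin and 7 lower (18 and 4 with median scaling), and E2f5, an E2F factor that represses, differed by -0.42 ± 0.14 against PBS in the sAcvR2B-Fc group (adjusted p 0.128).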

How the data were processed

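Total RNA of 13 hearts was labelled with biotin and hybridised to Illumina BeadChips, per the labels' protocols. The deposited non-normalized table holds a signal intensity and a detection p-value per probe and array, per the file headers, with software not given in the sources used here. A deposited series matrix holds intensity values processed further by steps not given in the sources used here, and served in alternatives only, with values under 1 set to 1. Its columns were matched by values to the arrays. The neqc function of limma 3.58.1 in R 4.3.3 (offset 16) corrected background, quantile-normalized and took log2. A detection p under 0.05 on 3 or more arrays passed 18693 of 45281 probes. Names came from the platform annotation, updated to the GRCm38.p6 gene table; 34885 had 1 symbol, 18 several and 10378 none. A gene is its passing probe with the highest mean, and probes of different genes are not compared in level. The 3 groups were fitted in 1 model (lmFit, eBayes, two-sided, Benjamini-Hochberg over 10410 genes, called at an adjusted p under 0.05), which was tested on simulated data. For a group with no detected array, a bound ("at least N-fold") sets the brighter group's mean against, per array, the higher of the lowest detected signal and the gene's own. Errors are SE of the model unless marked SD. Genes with every array's value were those called, the 6 with the smallest p per comparison and 9 regulators where they passed; of the pathway lists, those called, the 4 with the smallest p and Cdkn1a; doxorubicin replicate 2 was examined more closely, and Prc1, Plk1, Nusap1 and Mcm5 named, after values were seen. The 41 genes, the lists and the alternatives were chosen with earlier results of these data known. Replicate numbers are shared by the groups, but 11 same-numbered pairs correlated between -0.245 and 0.386, with 4 over 0.1, so they were not treated as pairs. The number of arrays limits the precision.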

Additional observations from a re-analysis of the deposited data

Results flagged for a closer look

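In groups of 5 arrays, the highest or lowest array of a gene was compared with its nearest neighbour relative to the range of the group (Dixon's ratio, critical value 0.71). Of 58 gene and group combinations 5 exceeded it, and chance alone gives about 1 in 20. Nusap1 was high on doxorubicin replicate 2 (ratio 0.806), at 5.82 against 4.80 for the next array. Tyms was high on PBS replicate 1 (0.768), at 5.66 against 5.19. Pcna was high on PBS replicate 4 (0.78), although undetected there, and low on doxorubicin replicate 2 (0.728), at 5.06 against 5.28 for the next array. Rb1 was low on doxorubicin replicate 5 (0.732), at 9.22 against 9.78.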

How the results depend on the processing

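The alternatives were the other assignment of arrays, the series matrix values, the 7 arrays both tables place in the same group, median scaling, no background correction, no or a stricter detection filter, probe averaging, single probes, a fit of 2 groups, array weights, a replicate block and leaving out each array. The count of called genes among the 29 was 0 to 1 in doxorubicin against PBS over the fits that left out 1 array; the 1 was Mcm7 without doxorubicin replicate 2. Against PBS with sAcvR2B-Fc it was 1 without background correction and 1 with array weights, in both Cdkn1c (-0.46 and -0.48, adjusted p 0.0488 and 0.0484), and 0 in the other fits. With the replicate block it was 0 in all 3 comparisons, while genes called over the whole table went from 25 to 4, from 9 to 64 and from 128 to 210. In doxorubicin against PBS that total was 43 without background correction, 38 with detection on all arrays, 161 with array weights and 3 to 332 when 1 array was left out. Between the treated groups it was 4 on the 7 arrays, 6 with median scaling, 6 with 2 groups fitted and 6 to 11 with 1 array left out. With sAcvR2B-Fc against PBS it was 25 with median scaling, 238 without background correction, 280 with array weights, 6 on the 7 arrays and 25 to 294 with 1 array left out. On the 7 arrays the first comparison called 0 genes, and on the series matrix values or names each comparison called 0. Cdkn1a was not called under the series matrix names, with 0.94 and 0.87 against PBS (0.97 and 0.90 on series matrix values), nor on the 7 arrays (2.72 and 3.21, adjusted p 0.549 and 0.388). Over 963 values of 13 named genes under 25 alternatives, 912 kept their sign and 51, all uncalled, did not. Some alternatives could not change a difference, such as leaving out an array of the group not compared or fitting only 2 groups. The count of kept signs therefore overstates stability. The cause of the changes in call or sign was not tested. For genes near background, such as Pcna, the offset of 16 shrinks differences. The median of the 29 changed sign with median scaling after doxorubicin (0.049), and between the treated groups with the series matrix names (0.029) or values (0.025), array weights (0.037), and without doxorubicin replicate 2 (0.096) or sAcvR2B-Fc replicate 1 (0.01). With median scaling 75.7% of all genes were higher after doxorubicin and 69.8% with sAcvR2B-Fc against PBS, where quantile normalization gave 49% and 50.1%.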
